A study of Mus musculus with 16 samples.

Results

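Phenylalanine and tyrosine catabolism was followed in mouse liver through 6 genes, Tat, Hpd, Hgd, Fah, Pcbd1 and Qdpr. They were picked by name among the probes for transcripts on each array, each had 1 probe, and all 6 were among the 18507 genes tested. The animals were C57BL/6 males aged 3 months, and the arrays measured their liver total RNA, with or without the glucocorticoid receptor (GR, encoded by Nr3c1) in the liver. The 4 groups of 4 arrays were GR knockout (KO) with dexamethasone, a synthetic glucocorticoid that activates the receptor, KO without treatment, wild type (WT) with dexamethasone and WT without treatment. The treatment protocol speaks of vehicle where the source names say no treatment, and the titles of all KO samples, dexamethasone included, carry the word PBS. How much dexamethasone was given, by which route and for how long, which part of Nr3c1 was deleted and what drove the deletion is not given in the sources used. Nothing in the labels says that each array is a separate mouse, so p-values measure the spread between these arrays, which may be technical.

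The liver breaks down phenylalanine by first turning it into tyrosine, a step that consumes the cofactor tetrahydrobiopterin. Pcbd1, the pterin carbinolamine dehydratase, and Qdpr, the dihydropteridine reductase, regenerate that cofactor. Tyrosine is then degraded in a chain in which Tat removes the amino group, Hpd makes homogentisate, Hgd opens its ring and Fah cuts the last intermediate into fumarate and acetoacetate. Inherited loss of Hgd causes alkaptonuria and loss of Fah causes hereditary tyrosinaemia. Tat is a classical glucocorticoid-induced liver gene, for which the response was first worked out in rat.

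The upstream sequences of the 3 genes that passed a test are shown because they are the part of each gene next to its start, where letters of a receptor motif might stand. Each is the 250 bases before the RefSeq start on GRCm38.p6, written 5′ to 3′ along the strand of the gene, and all 6 genes had an entry. Tat lies at chr8:109990186-109990435 on the plus strand, Hpd at chr5:123182724-123182973 on the minus strand and Pcbd1 at chr10:61089081-61089330 on the plus strand. Capitals would mark a match to the receptor motif described next, and none was found.
Tat: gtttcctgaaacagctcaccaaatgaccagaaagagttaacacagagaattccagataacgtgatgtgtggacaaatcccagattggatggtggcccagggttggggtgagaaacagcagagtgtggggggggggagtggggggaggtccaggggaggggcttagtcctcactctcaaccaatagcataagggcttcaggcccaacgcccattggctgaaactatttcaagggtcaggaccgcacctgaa
Hpd: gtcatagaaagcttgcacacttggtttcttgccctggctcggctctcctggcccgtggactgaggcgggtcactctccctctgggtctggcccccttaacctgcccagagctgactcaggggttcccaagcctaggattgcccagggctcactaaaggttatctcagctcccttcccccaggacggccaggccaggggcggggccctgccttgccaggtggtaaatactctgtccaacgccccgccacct
Pcbd1: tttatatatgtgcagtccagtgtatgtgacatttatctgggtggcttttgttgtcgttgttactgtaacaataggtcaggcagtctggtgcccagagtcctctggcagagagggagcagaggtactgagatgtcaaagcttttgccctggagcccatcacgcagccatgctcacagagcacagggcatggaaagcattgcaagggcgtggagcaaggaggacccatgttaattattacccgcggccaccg

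The glucocorticoid receptor element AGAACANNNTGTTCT, with up to 2 mismatches, was in 1.56% of 32851 promoters of the same length and in 0 of the 6 genes. Its arm AGAACA, or TGTTCT on the other strand, was in 16.08% and likewise in 0 of the 6. The full element reads the same on either strand, and the arms overlap the full element. In rat the known receptor elements of Tat lie far upstream, outside a window of this kind, and the lack of a match says only that these letters are not in it.

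Probe positions follow the annotation in the scanner files, on the mm7 build. The Tat probe covered chr8:108599439-108599498, the Hgd probe chr16:37330265-37330324 and the Pcbd1 probe chr10:60611741-60611800, all on the plus strand. The Qdpr probe covered chr5:44756709-44756768 on the minus strand. The probes of Hpd (chr5:122402761-122404883, minus strand) and Fah (chr7:80513986-80514802, minus strand) were 60 bases long but spanned 2123 and 817 genome bases. Those probes are shown because their annotated span is longer than the probe itself.
Hpd probe: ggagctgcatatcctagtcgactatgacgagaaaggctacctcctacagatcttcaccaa
Fah probe: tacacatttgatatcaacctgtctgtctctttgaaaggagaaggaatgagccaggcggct

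Levels are given as log2 of the processed signal minus the 75th percentile of that array, so that 0 is the array's upper quartile. Array numbers are the replicate numbers of the labels, and levels of different probes are not set against each other. All 6 probes were well above background on all 16 arrays and saturated on none. The 75th percentile was 524 to 691 on 14 arrays but 400 on array 4 of untreated WT and 309 on array 1 of untreated KO, and that KO array correlated least with its own group (mean r = 0.963, against 0.975 to 0.980 for the other 3). No slide carried arrays from more than 1 group, and an effect of the slide cannot be told apart from that of the group. Nr3c1 averaged 0.17 ± 0.26 in KO livers and 2.13 ± 0.15 in WT livers under dexamethasone, and 0.42 ± 0.13 in KO livers and 2.40 ± 0.18 in WT livers without treatment (SD, n = 4 each). The differences of -1.96 (SE 0.14, adjusted p = 6.32e-06) and -1.99 (SE 0.14, adjusted p = 1.71e-05), by its brightest probe, have the direction of the labelled genotypes. Its other probes gave -1.93, -1.95 and -0.97 under dexamethasone (adjusted p = 0.000645, 2.31e-05 and 0.197). Without treatment they gave -2.25, -2.10 and -1.62 (adjusted p = 0.00281, 0.000118 and 0.103), so the last of them passed in neither comparison. Where the probes lie relative to the deletion is not known here. In whole liver RNA, fewer cells of a type and less RNA per cell cannot be told apart.

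Of the 6 genes, Tat, Hpd and Pcbd1 differed between KO and WT livers under dexamethasone, and Tat also differed between dexamethasone-treated and untreated WT livers. A gene was called at an adjusted p under 0.05 in limma's moderated test, with Benjamini-Hochberg adjustment across the whole table. KO against WT under dexamethasone called 1 of the 6 higher and 2 lower, where 14.2% of all genes were called higher, 8.2% lower and 22.4% in either direction. Dexamethasone against no treatment in WT called 1 of 6, in the higher direction, with 5.11% of all genes called higher, 6.88% lower and 12% in either direction. In KO livers dexamethasone called 0 of 6, with 1.19% of all genes called higher, 2.44% lower and 3.63% in either direction, and at an unadjusted p under 0.05 also 0. The KO arrays with and without dexamethasone overlapped for all 6 genes, and did not overlap for 9.76% of all genes. KO against WT without treatment called 0 of 6, with 2.06% of all genes called higher, 0.751% lower and 2.82% in either direction, and 1 of 6 at an unadjusted p under 0.05. The interaction, the dexamethasone effect in KO minus that in WT, called 0 of 6, with 1.94% of all genes called higher, 2.69% lower and 4.63% in either direction, and 0 of 6 at an unadjusted p under 0.05. These comparisons share arrays, so they are not independent of each other.

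**Figure D1:**
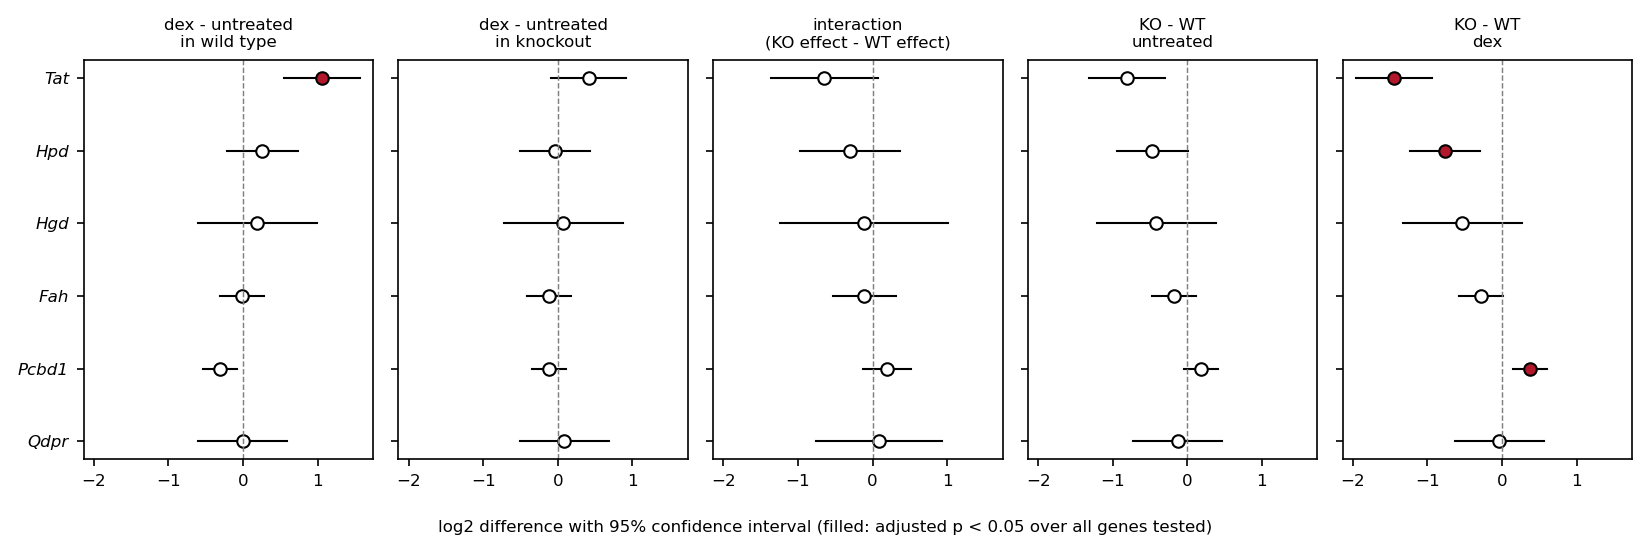
Log2 difference (horizontal axis) of each of the 6 genes in the 5 comparisons, with 95% confidence intervals, filled where the adjusted p over all genes was under 0.05. Tat, Hpd and Pcbd1 are filled for KO against WT under dexamethasone, and Tat alone for dexamethasone against no treatment in WT.

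Tat, the aminotransferase that starts tyrosine breakdown, stood at 7.30, 6.91, 7.01 and 7.91 in KO livers given dexamethasone, against 8.85, 8.40, 8.95 and 8.75 in WT livers given it. Without treatment it stood at 7.16, 6.75, 6.55 and 7.02 in KO livers, against 7.58, 7.83, 7.18 and 8.11 in WT livers. The dexamethasone-treated WT arrays were the highest 4 of the 16, and they overlapped no other group. Untreated KO arrays were all below untreated WT arrays, while the dexamethasone-treated KO arrays overlapped both untreated groups. In processed signal, Tat spanned 64732 to 166062 in dexamethasone-treated KO livers and 218387 to 274266 in dexamethasone-treated WT livers.

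Under dexamethasone, Tat averaged 7.28 ± 0.45 in KO livers and 8.73 ± 0.24 in WT livers (SD, n = 4 each). The difference of -1.45 (SE 0.24, 95% CI -1.96 to -0.95, adjusted p = 0.0008) is a 2.74-fold lower level in KO. In WT livers Tat rose with dexamethasone, averaging 8.73 ± 0.24 in treated and 7.68 ± 0.39 in untreated livers, a 2.08-fold difference (log2 1.06, SE 0.24, 95% CI 0.55 to 1.57, adjusted p = 0.0105). In KO livers it averaged 7.28 ± 0.45 with and 6.87 ± 0.27 without dexamethasone. That difference of 0.41 did not pass (95% CI -0.10 to 0.92, adjusted p = 0.416), and its interval reaches up to an increase of 0.92. The interaction itself was -0.65 (SE 0.34, 95% CI -1.36 to 0.07, adjusted p = 0.369), so a smaller response of Tat in KO was not shown by the test of that difference. Without treatment KO minus WT was -0.81 (95% CI -1.32 to -0.30), and it did not pass over all genes (adjusted p = 0.0799), although the arrays did not overlap, as held for 11.6% of all genes. Both calls of Tat held under all 20 alternative settings of each comparison, with adjusted p between 0.0049 and 0.0362 for dexamethasone in WT and between 0.000317 and 0.00404 for KO against WT.

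**Figure D2:**
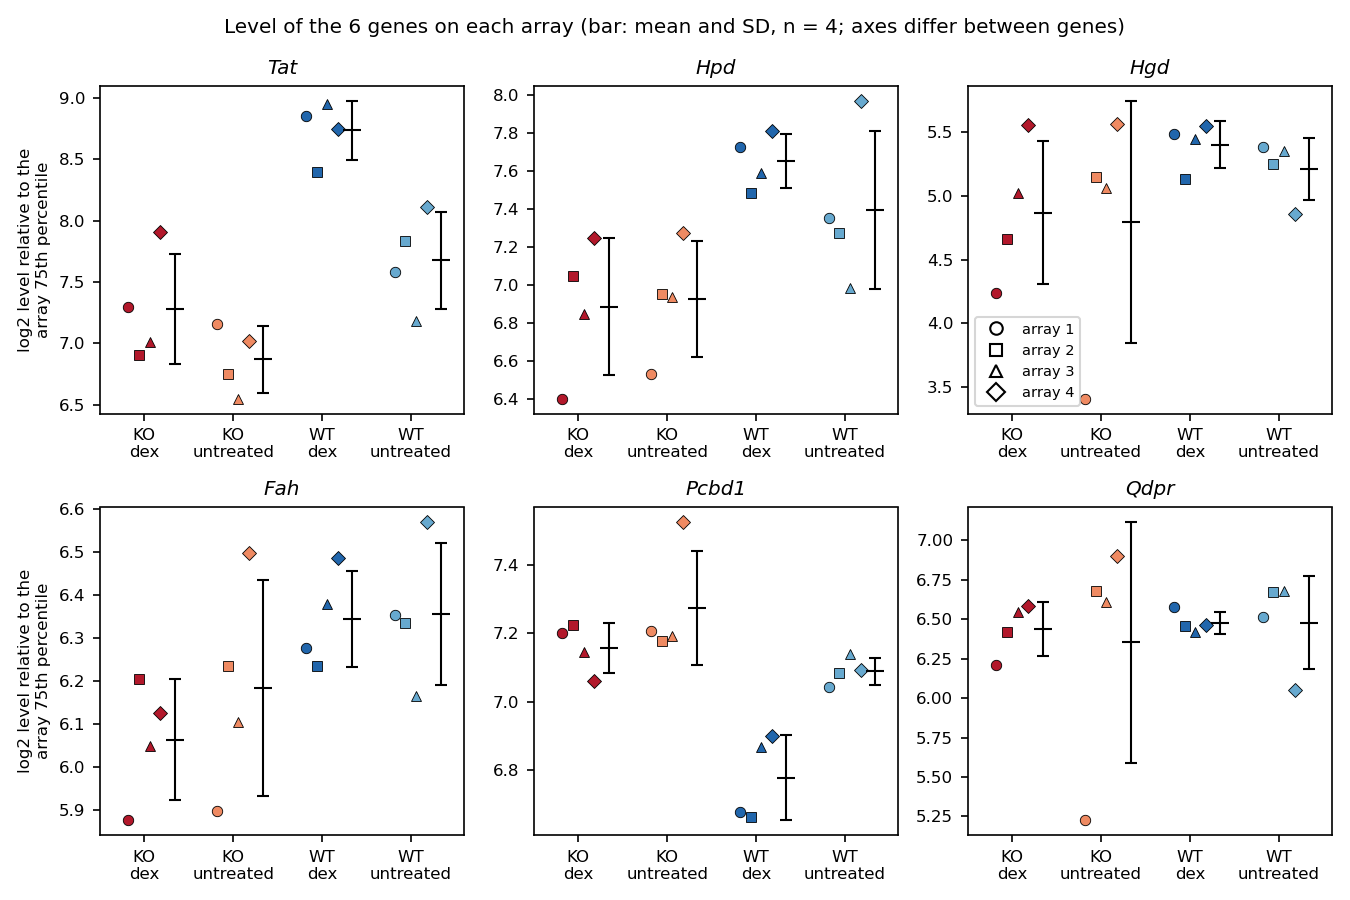
Log2 level relative to each array's 75th percentile (vertical axis, scale differing between genes) on the 4 arrays of each group, with the group mean and SD. For Tat the 4 dexamethasone-treated WT arrays, 8.40 to 8.95, lie above all others, and for Pcbd1 those arrays, 6.67 to 6.90, lie below all others.

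Hpd, the dioxygenase after Tat, was lower in KO than in WT livers under dexamethasone. It stood at 6.40, 7.05, 6.85 and 7.25 in dexamethasone-treated KO livers, against 7.72, 7.48, 7.59 and 7.81 in dexamethasone-treated WT livers, with no overlap. The untreated arrays stood at 6.53, 6.95, 6.94 and 7.27 in KO and at 7.35, 7.27, 6.98 and 7.97 in WT, and these overlapped. Array 4 was the highest of both untreated groups.

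Under dexamethasone Hpd averaged 6.88 ± 0.36 in KO and 7.65 ± 0.14 in WT livers (SD, n = 4 each), a 1.70-fold lower level in KO (log2 -0.77, SE 0.22, 95% CI -1.24 to -0.29, adjusted p = 0.0233). The call was lost when array 1 or array 4 of dexamethasone-treated WT was left out (-0.74, adjusted p = 0.0574, and -0.71, adjusted p = 0.0602). It was also lost without array 1 or array 3 of dexamethasone-treated KO (-0.60, adjusted p = 0.0732, and -0.75, adjusted p = 0.0551). The direction was the same under all 20 alternatives, from -0.94 to -0.60. Dexamethasone against no treatment gave -0.04 in KO and 0.26 in WT (95% CI -0.22 to 0.73), and neither passed. Untreated KO minus untreated WT was -0.47 (adjusted p = 0.263).

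Hgd, the homogentisate dioxygenase, passed no test, and 1 array set much of its spread. It stood at 4.24, 4.66, 5.02 and 5.55 in dexamethasone-treated KO livers, against 5.48, 5.13, 5.45 and 5.54 in dexamethasone-treated WT livers. Without treatment it stood at 3.41, 5.15, 5.06 and 5.56 in KO, against 5.38, 5.25, 5.35 and 4.86 in WT. Array 1 of untreated KO lay 1.38 below the mean of its group, and all neighbouring groups overlapped. KO minus WT was -0.53 under dexamethasone (95% CI -1.33 to 0.27) and -0.41 without treatment, where it became 0.05 without that array. Dexamethasone against no treatment in KO was 0.07, and -0.39 without it. The scanner joined readings at high and low gain, and for Hgd the low-gain reading was used on 2 of 4 dexamethasone-treated KO arrays, 2 of 4 untreated KO, 4 of 4 dexamethasone-treated WT and 3 of 4 untreated WT arrays. The part of the gain in the spread of Hgd was not tested.

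Fah, the hydrolase at the end of the chain, had the smallest SD of the 4 tyrosine enzymes in each group, and passed no test. It stood at 5.88, 6.21, 6.05 and 6.12 in dexamethasone-treated KO livers, against 6.28, 6.24, 6.38 and 6.48 in dexamethasone-treated WT livers. Without treatment it stood at 5.90, 6.23, 6.11 and 6.50 in KO, against 6.35, 6.33, 6.17 and 6.57 in WT. Under dexamethasone the KO arrays were all below the WT arrays, by a difference of means of -0.28 that did not pass (95% CI -0.58 to 0.02, adjusted p = 0.165), while the untreated groups overlapped. Such separation of arrays held for 4 of the 6 genes in that comparison and for 31.7% of all genes. Dexamethasone against no treatment was -0.12 in KO and -0.01 in WT (95% CI -0.31 to 0.28).

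Pcbd1, the dehydratase that recycles the pterin cofactor, differed the opposite way from Tat and Hpd. It stood at 7.20, 7.22, 7.14 and 7.06 in dexamethasone-treated KO livers, against 6.68, 6.67, 6.87 and 6.90 in dexamethasone-treated WT livers. Without treatment it stood at 7.21, 7.18, 7.19 and 7.52 in KO, against 7.04, 7.08, 7.14 and 7.09 in WT. The dexamethasone-treated WT arrays were the lowest 4 of the 16, and array 4 of untreated KO stood above the other 3 of its group.

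Under dexamethasone Pcbd1 averaged 7.16 ± 0.07 in KO and 6.78 ± 0.12 in WT livers (SD, n = 4 each), a 1.30-fold higher level in KO (log2 0.38, SE 0.11, 95% CI 0.15 to 0.61, adjusted p = 0.0220). The call was lost with normexp background correction (0.28, adjusted p = 0.185), without a filter on dim probes (adjusted p = 0.0505), and without array 1 or 2 of either dexamethasone-treated group (adjusted p = 0.0521 and 0.0586 for KO, 0.0674 and 0.0647 for WT). In WT livers dexamethasone against no treatment gave -0.31 (95% CI -0.54 to -0.08). It did not pass over all genes (adjusted p = 0.0775), although the arrays did not overlap, as was so for 2 of the 6 genes and for 22.1% of all genes. With trended and robust variances it passed (adjusted p = 0.0416). In KO livers the same difference was -0.12, and the interaction was 0.19 (adjusted p = 0.633). Untreated KO minus untreated WT was 0.19 (adjusted p = 0.376). Those arrays did not overlap, as held for 2 of the 6 genes and for 11.6% of all genes.

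Qdpr, the reductase that completes cofactor recycling, did not pass in any comparison. It stood at 6.21, 6.42, 6.54 and 6.59 in dexamethasone-treated KO livers, against 6.57, 6.45, 6.42 and 6.46 in dexamethasone-treated WT livers. Without treatment it stood at 5.23, 6.68, 6.61 and 6.90 in KO, against 6.51, 6.67, 6.68 and 6.05 in WT. The 2 lowest of the 16 readings were array 1 of untreated KO and array 4 of untreated WT, the arrays with the lowest 75th percentile, and the groups overlapped. KO minus WT under dexamethasone was -0.04 (95% CI -0.64 to 0.56), and dexamethasone minus no treatment in WT was 0.00. Without array 1 of untreated KO, dexamethasone against no treatment in KO was -0.29 in place of 0.09, and untreated KO minus WT was 0.25 in place of -0.13. The low-gain reading was used for Qdpr, and likewise for Fah, on every array except that one. The part of the gain in these values was not tested.

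**Figure D3:**
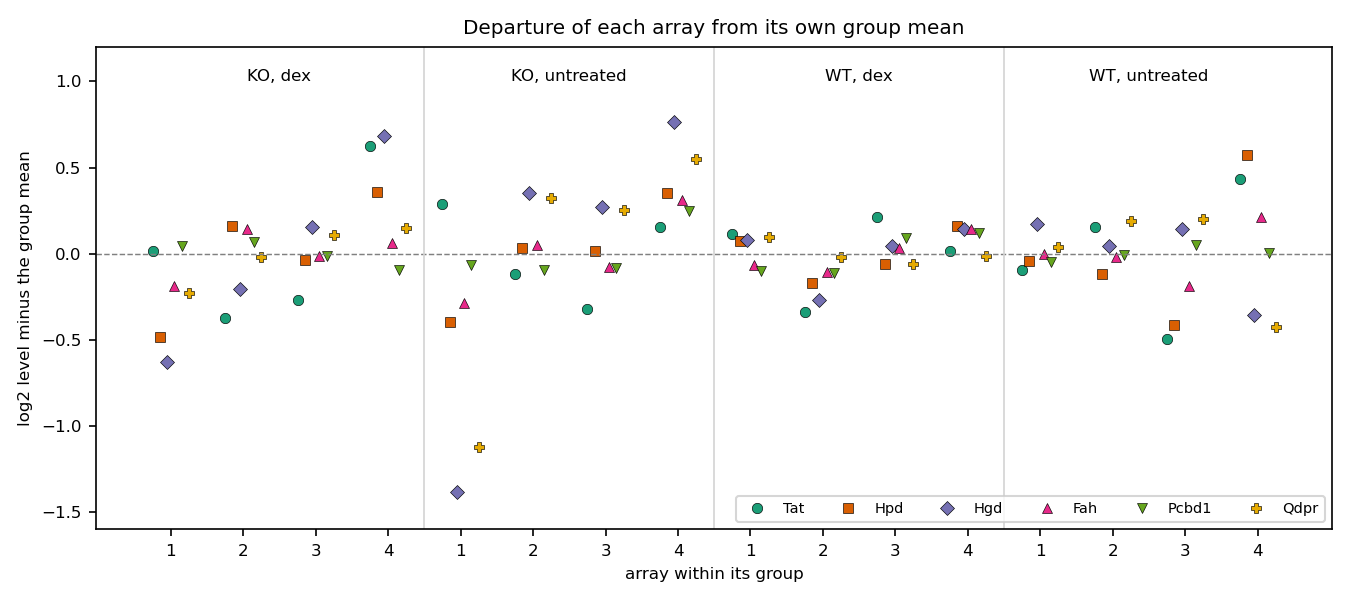
Log2 level of each gene on each array minus the mean of its group (vertical axis), for the 4 arrays of each group along the horizontal axis. On array 1 of untreated KO, Hgd lies 1.38 and Qdpr 1.13 below the group mean, while Tat lies 0.29 above it.

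Across the chain, the median difference of KO against WT under dexamethasone was -0.41 for the 6 genes and 0.09 for all genes. Without treatment it was -0.29 for the 6 genes and 0.05 for all genes. For dexamethasone against no treatment the median of the 6 was 0.02 in KO and 0.09 in WT, and that of all genes was 0.00 in KO and -0.04 in WT. With 6 genes these medians only describe the genes listed.

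Ordered by mean, Tat ran from dexamethasone-treated WT through untreated WT and dexamethasone-treated KO to untreated KO, and only the step below dexamethasone-treated WT had no overlap between neighbours. Hpd had the same order except that the KO groups changed places, and all its neighbours overlapped. Pcbd1 was highest in untreated KO, then in dexamethasone-treated KO, untreated WT and dexamethasone-treated WT, and only that last step had no overlap. Hgd, Fah and Qdpr had overlapping neighbours throughout.

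The genes whose values were most like each member over the 16 arrays were found among 12837 named genes above background on all arrays. For Tat they were Vstm4 (r = 0.959), Sds, the serine dehydratase (r = 0.955), and Il6ra, a receptor chain for interleukin 6 (r = 0.950). Hpd was most like Klc4 (r = 0.948), Ahcy, the hydrolase of S-adenosylhomocysteine (r = 0.944), and Asl of the urea cycle (r = 0.937). Hgd was most like Gnmt, the glycine methyltransferase (r = 0.983), Aga (r = 0.973) and St6galnac6 (r = 0.966). Fah was most like Gchfr, the feedback regulator of the first enzyme of pterin synthesis (r = 0.922), 9430038I01Rik (r = 0.917) and Pecr (r = 0.912). Pcbd1 was most like Slc25a10 (r = 0.949), Bdh1, a ketone body dehydrogenase (r = 0.947), and Rab43 (r = 0.944). Qdpr was most like Tprgl (r = 0.976), Commd6 (r = 0.971) and Tmem14c (r = 0.969). The points share slides and the low arrays, so these are descriptions.

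Other enzymes that handle phenylalanine and tyrosine, 7 of 7 tested, included 1 called higher and 2 lower in KO against WT livers under dexamethasone. The list median was -0.05. For this and every list below, 14.2% of all genes were called higher and 8.2% lower in that comparison, with a median of 0.09. Got1, the cytosolic aspartate aminotransferase, which also accepts aromatic amino acids, stood at 3.86, 4.61, 4.04 and 5.40 in KO against 6.11, 5.61, 5.86 and 7.01 in WT (log2 difference -1.67, SE 0.42, adjusted p = 0.0118). Mif, a cytokine that can interconvert forms of phenylpyruvate, was 0.56 higher in KO (SE 0.11, adjusted p = 0.00249), though not called with 1 of 20 alternatives. Hpdl, a relative of Hpd, was called lower (-0.91, adjusted p = 0.0482) but lost the call in 10 of 20 alternatives. In WT livers dexamethasone called 1 of the 7, with Mif lower (-0.44, adjusted p = 0.0161). That call was lost with normexp background correction (adjusted p = 0.0658), without array 2 of untreated WT (adjusted p = 0.0584) and without array 1 of dexamethasone-treated WT (adjusted p = 0.0553). In KO livers, without treatment and for the interaction 0 of the 7 were called.

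The partners of Pcbd1 and Qdpr in making and recycling tetrahydrobiopterin, 6 of 6 tested, had 0 called in KO against WT under dexamethasone (median 0.19). Dexamethasone in KO, untreated KO against WT and the interaction also called 0 of the 6.

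Of 10 genes that use tyrosine outside its breakdown, 6 were tested. Dct, known from melanin synthesis, was lower in KO than in WT under dexamethasone (-2.62, SE 0.61, adjusted p = 0.00733). Its 4 arrays stood at -0.54, -1.17, 0.28 and -1.61 in KO, against 0.54, 1.29, 3.04 and 2.57 in WT. Dexamethasone in KO, untreated KO against WT and the interaction called 0 of the 6.

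Transporters of aromatic and related amino acids had 7 of 8 members tested, with 1 higher and 2 lower in KO against WT under dexamethasone and 0 called in the other 4 comparisons. Slc43a1, a carrier of large neutral amino acids, stood at -1.35, -0.35, -1.66 and -1.53 in KO against 1.42, 1.32, 1.50 and 1.58 in WT (log2 difference -2.68, SE 0.43, adjusted p = 0.000687). Slc16a10, an aromatic amino acid carrier, was lower by the brightest of its 3 probes (-0.71, adjusted p = 0.022), with -0.63 (adjusted p = 0.0567) and -0.19 (adjusted p = 0.576) by the others. Slc7a7, a carrier of basic amino acids, was higher (1.17, adjusted p = 0.0222). The calls of Slc16a10 and Slc7a7 were each lost in 4 of 20 alternatives.

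Among 10 hepatocyte transcription factors, KO against WT under dexamethasone called 1 higher and 3 lower. Hnf4a, a nuclear receptor that maintains hepatocyte genes, stood at 3.42, 3.39, 3.45 and 3.37 in KO against 4.41, 4.45, 4.55 and 4.80 in WT (log2 difference -1.14, SE 0.17, adjusted p = 0.000437). Cebpb fell by 1.36 (SE 0.21, adjusted p = 0.000485) and Foxa3 by 0.85 (SE 0.22, adjusted p = 0.0145). Cebpa was 0.43 higher in KO (adjusted p = 0.0398), lost in 10 of 20 alternatives, with 0.24 (adjusted p = 0.215) by its other probe. In WT livers dexamethasone called Hnf4a higher (0.58, adjusted p = 0.0375), a call lost in 12 of 20 alternatives and absent from its 2 other probes (adjusted p = 0.115 and 0.935).

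The catabolism of other amino acids, 34 of 36 genes tested, gives a neighbouring group. KO against WT under dexamethasone called 12 lower and 1 higher, with a median of -0.36. Of all genes 8.2% were called lower and 14.2% higher there, with a median of 0.09. Dexamethasone in WT called 6 higher and 1 lower, where 5.11% of all genes were called higher and 6.88% lower. Aass, of lysine breakdown, stood at 5.77, 5.99, 5.50 and 6.21 in KO against 7.92, 7.78, 7.78 and 8.07 in WT under dexamethasone (log2 difference -2.02, SE 0.22, adjusted p = 6.49e-05). Tdo2, the tryptophan dioxygenase and another classical glucocorticoid-induced gene, differed by -2.35 (SE 0.33, adjusted p = 0.000287). Sdsl differed by -1.47 (adjusted p = 0.000513) and Bhmt, of homocysteine remethylation, by -1.92 (adjusted p = 0.00223).

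In WT livers dexamethasone raised Aass by 1.47 (adjusted p = 0.00113), Sdsl by 1.32 (adjusted p = 0.00225) and Tdo2 by 1.56 (adjusted p = 0.00753). Acmsd was called at 1.56 (adjusted p = 0.00315), but it was well above background on 4 of 4 treated and only 2 of 4 untreated arrays. With normexp background correction its difference was 0.45 and the call was lost (adjusted p = 0.433). Aass was the 1 gene of the list called for the interaction (-1.46, SE 0.31, adjusted p = 0.0177), with a difference of 0.01 in KO livers. KO livers had 0 of the 34 called for dexamethasone, and untreated KO against WT also had 0.

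**Figure D4:**
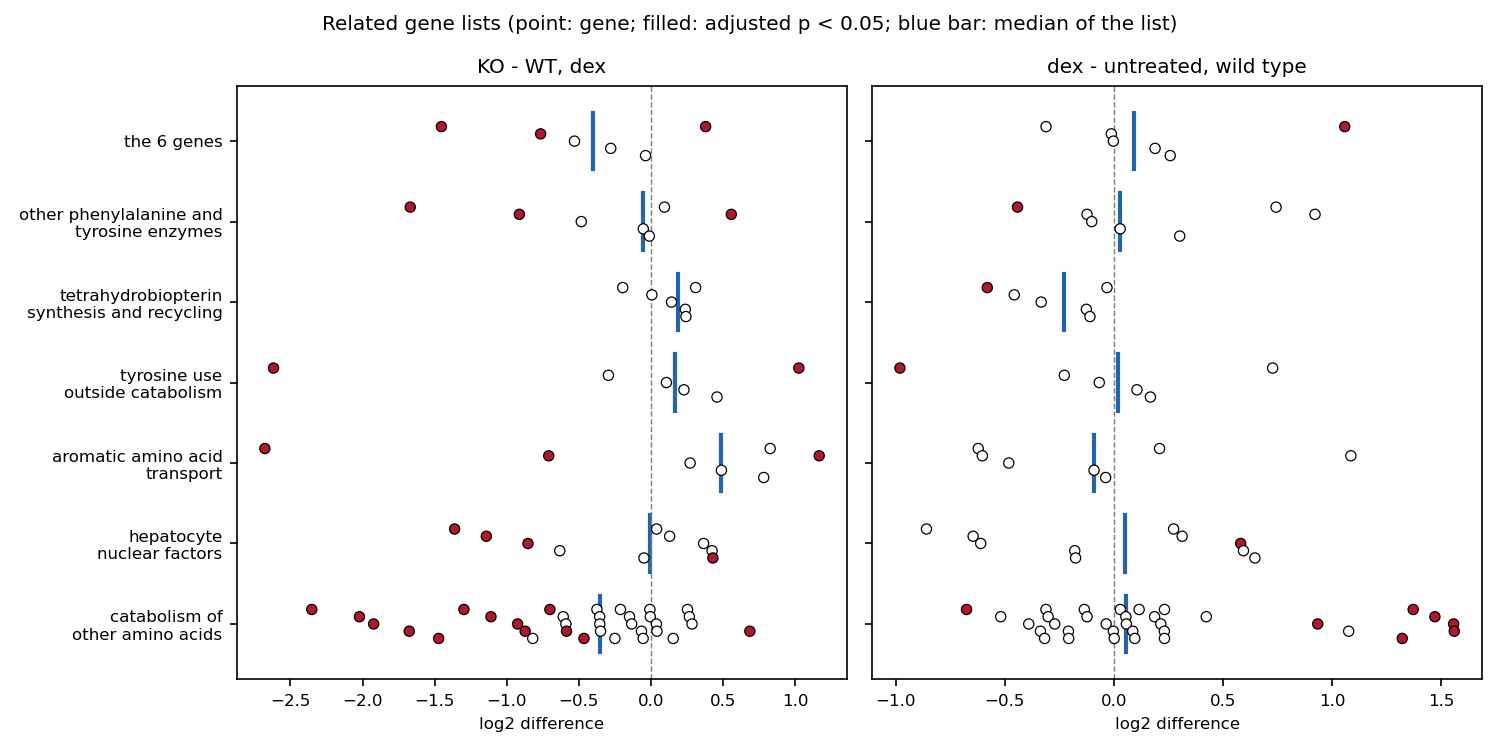
Log2 difference of each tested gene in the 6 members and the 6 related lists, for KO against WT under dexamethasone (left) and dexamethasone against no treatment in WT (right), filled where the adjusted p over all genes was under 0.05, with the median of each list as a blue bar. Catabolism of other amino acids has 12 genes filled on the negative side at left and 6 on the positive side at right.

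The tissue carried the markers of hepatocytes, with Alb at 10.07 to 10.37 in the group means. Of 8 listed hepatocyte genes 6 were tested. KO against WT under dexamethasone called 3 lower (median -0.36), namely Apoa1 (-0.80), Cyp2e1 (-0.53) and Cps1 (-1.28), while Alb differed by -0.06. Without treatment KO against WT called 2 lower (median -0.39), namely Apoa1 (-0.88, adjusted p = 0.0202) and Cps1 (-0.89, adjusted p = 0.0407). The summed signal of the 6 hepatocyte genes relative to the 75th percentile was 1737 to 1982 in KO and 2197 to 2534 in WT arrays under dexamethasone. Without treatment these sums overlapped, at 1868 to 2559 in KO and 1918 to 2896 in WT. Bright probes such as that of Alb weigh most in such sums. The sums and calls of the lists that follow are for KO against WT under dexamethasone only. The 8 periportal genes summed to 541 to 948 in KO and 822 to 1153 in WT, with 2 called lower. They include Sds, Hal and Gls2 of the list of other amino acid catabolism. The 8 pericentral genes summed to 402 to 537 in KO and 539 to 774 in WT, with 3 called lower. They include Oat of that amino acid list and Cyp2e1 of the hepatocyte genes. Kupffer cell genes, 8 of 8 tested, summed to 50.9 to 93.0 in KO and 34.5 to 61.2 in WT, with 0 called. B cell genes, 5 of 6 tested, summed to 0.455 to 0.576 in KO and 0.297 to 0.406 in WT, with 2 called higher. T and NK cell genes, 6 of 8 tested, summed to 0.903 to 1.55 in KO and 1.16 to 1.61 in WT, with 1 called lower. Cholangiocyte genes, 5 of 6 tested, summed to 14.4 to 63.8 in KO and 10.4 to 19.6 in WT, with 1 called lower. They share Sox9 with the periportal genes. The 63.8 was array 1 of dexamethasone-treated KO alone, and the other arrays of that group stood at 20.7, 20.3 and 14.4. Erythroid genes, 3 of 5 tested, summed to 99.1 to 148 in KO and 89.0 to 174 in WT, with 1 called higher. Sinusoidal endothelial and stellate genes, 8 of 8 tested in each list, had 0 called. The part of these markers in the differences of Tat, Hpd and Pcbd1 was not tested.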

How the data were processed

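Each array was hybridised with Cy3-labelled cRNA of 1 liver sample, per the labels' protocols. Agilent Feature Extraction 9.5 is named in the submitters' processing notes. With it the authors deposited a background-subtracted intensity for every spot, identical to the intensity in their series table. The other values taken were flags for background, saturation, outlying spots and scanner gain, as defined per the file headers. No normalization between arrays had been applied.

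The log2 processed signal minus each array's 75th percentile was used. Control spots (1639 of 45018) and outlying spots were left out, and spots of a probe were averaged. Of 41174 probes, 26794 passed the background flag on 3 or more arrays of some group of 4, and the brightest probe stood for each of 18507 genes. RefSeq gave 22951 probes a name by accession and 9768 by symbol or synonym, and 8455 kept the file's name. Probe levels of different genes are not comparable, and the number of arrays limits the precision.

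Means of the 4 groups over 16 arrays were fitted by limma 3.58.1 under R 4.3.3 (12 residual degrees of freedom), with two-sided tests of 5 contrasts and Benjamini-Hochberg adjustment. Figures were drawn with matplotlib. On simulated data of 18483 genes, 53.3% of log2 changes of 1 and 86% of changes of 2 were recovered for KO against WT under dexamethasone. For the interaction 33% of changes of 1 and 74.3% of changes of 2 were recovered. The simulation changed fewer genes than were called in the data, so its adjusted cutoff differs from that of the data. Alternatives covered background correction, normalization, filters, variance, the groups fitted, a replicate block and each array left out. The 6 genes were named throughout, with Nr3c1, the called genes of each list (at most 4 per comparison, by smallest adjusted p, and up to 2 others by role) and the 3 genes most like each member. Single hepatocyte markers were named, and the setting without 2 untreated arrays of low signal was added, after values were seen. The members and lists were chosen with earlier results of these data known. A few genes of the lists are not reported here.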

Additional observations from a re-analysis of the deposited data

Results flagged for a closer look

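Among 92 groups of 4 arrays examined for the named genes, 6 had 1 array far from the others by the gap to its nearest neighbour divided by the group's range, where chance gives about 1 in 20. Of the 24 groups of the 6 genes, 1 stood out: Pcbd1 on array 4 of untreated KO, at 7.52 against 7.18 to 7.21 on the others (ratio 0.915). On array 4 of untreated WT the ratio was 0.884 for Nr3c1 (low, 2.13), 0.864 for Aass (high, 7.11) and 0.872 for Acmsd (high, -4.00). That array had the second lowest 75th percentile. Mif was high on array 1 of untreated KO (6.17, ratio 0.936), the array with the lowest 75th percentile. Foxa3 was low on array 1 of untreated WT (1.06, ratio 0.881). The dexamethasone effect on Aass differed between genotypes, by an interaction of -1.46.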

How the results depend on the processing

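Tat kept both its calls under all alternatives run. The labels do not say whether the replicate numbers pair the arrays. With group means removed, arrays of the same number in different groups had r from -0.19 to 0.35 (24 pairs, 10 over 0.1). These were not set against pairs of different numbers, so they do not settle whether the arrays are paired. With the replicate block 1 of the 6 genes was called for untreated KO against WT (Tat, adjusted p = 0.0473) in place of 0, and the block moved no other count of the 6. Trended and robust variances called 2 of the 6 in place of 1 for dexamethasone in WT. Leaving out each array in turn gave 1 to 3 of the 6 called for KO against WT under dexamethasone, 1 to 1 for dexamethasone in WT and 0 in the other comparisons. Over all genes, leaving out 1 array gave 2943 to 3690 called for KO against WT under dexamethasone (4153 with all), 157 to 642 without treatment (521), 500 to 1485 for the interaction (856), 313 to 927 for dexamethasone in KO (671) and 1219 to 2204 in WT (2218). The arrays left out at those ends, where the count moved most, were array 2 of untreated WT for 157, 500 and 1219, array 1 of untreated KO for 1485 and array 3 of dexamethasone-treated KO for 313. Normexp background correction gave 2386 for KO against WT under dexamethasone, 84 without treatment (46 higher, 38 lower, against 382 and 139), 100 for the interaction (28 higher, 72 lower, against 359 and 497), 46 for dexamethasone in KO and 1202 in WT. It moved the median of all genes for KO against WT under dexamethasone to 0.18, where Pcbd1 stood at 0.28. Without a filter the counts were 270 for untreated KO against WT, 539 for the interaction and 420 for dexamethasone in KO. Fitting only the groups compared gave 90 for untreated KO against WT and 129 for dexamethasone in KO, and quantile normalization gave 1087 for dexamethasone in KO. Leaving out both untreated arrays of low signal, a choice made after seeing the data, gave 3386 for dexamethasone in WT, 1075 in KO (684 higher, 391 lower, against 220 and 451) and 1509 for the interaction. Sign changes touched only differences that never passed. Fah for dexamethasone in WT was 0.0026 with quantile normalization and 0.0596 without both arrays. Qdpr in WT was 0.0855 with normexp and 0.0157 with quantile normalization, and in KO -0.0191 with normexp and -0.29 without both arrays. For the interaction Qdpr was -0.10 with normexp and -0.15 without both arrays. Qdpr was 0.11 for untreated KO against WT without both arrays and 0.0331 under dexamethasone with quantile normalization. For dexamethasone in KO, Hpd was 0.013 with quantile normalization and Hgd -0.39 without both arrays. The causes were not tested. Leaving out each array gave, for dexamethasone in WT, -0.0745 to 0.0596 for Fah and -0.144 to 0.0653 for Qdpr. For dexamethasone in KO it gave -0.17 to 0.12 for Hpd, -0.39 to 0.33 for Hgd and -0.29 to 0.27 for Qdpr. For the interaction it gave -0.58 to 0.14 for Hgd and -0.29 to 0.27 for Qdpr. It gave -0.669 to 0.0464 for Hgd and -0.31 to 0.25 for Qdpr in untreated KO against WT, and -0.0876 to 0.0387 for Qdpr under dexamethasone.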
